A study of Homo sapiens with 12 samples.

Results

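Of 11277 protein-coding genes with enough reads in both 786-O and A-498 cells, 43 (0.381%) had shifts of opposite sign when miR-29 was added: their mRNA was higher with the miR-29 mimic in A-498 and lower with it in 786-O. The 43 were selected on those shifts. A member had at least 100 counts summed over the libraries of each line, and a difference in mean log2 CPM (read counts scaled to library depth with TMM factors, with a prior count of 2) between mimic and control mimic of at least 0.7 in A-498 and at most -0.7 in 786-O. Genes whose symbols start with CXCL, CCL, IL, NFKB, TRAF, TNFAIP, ATF3 or COL were left out by the rule. It removed 9 genes that otherwise met both limits (TRAF1, CXCL2, IL21R, TNFAIP3, IL6, ATF3, CXCL1, CXCL8 and CCL5). Because the A-498 and 786-O values chose the genes, they are given as a description with no test, and no support is drawn from them.

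The data were counts of RNA-seq reads per gene in 12 libraries from 3 human kidney cancer lines. 786-O and A-498 cells received 10 nM of either a control mimic or a miR-29 mimic, which is a synthetic double of the microRNA. ACHN cells received 10 nM of a miR-29 inhibitor, which blocks the microRNA, or of a control inhibitor. All cells were transfected at plating with a lipid reagent and lysed 48 h later. 786-O had 1 library per group, A-498 had 2 and ACHN had 3. Each line stands for the tumour of a single patient, the mimic and the inhibitor were never used in the same line, and the replicates of A-498 and ACHN are described in the study's methods as biological. Whether they were separate passages or days is not given in the sources used here. The same reverse transfection was applied to treated and control cells. Further A-498 libraries that the study set aside as possibly mislabelled were not analysed here.

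MicroRNAs guide a silencing complex to mRNAs, mostly through pairing between the seed near the microRNA 5′ end and a complementary site in the 3′ untranslated region (UTR), and the paired mRNA is then repressed and degraded. The miR-29 family is best known for repressing collagens and other extracellular matrix genes. Clear cell kidney cancer commonly starts with loss of VHL. Many genes of growth factor, stress and inflammatory signalling, to which several of the 43 belong, are induced quickly and switched off again by feedback.

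The family members share a seed, which is shown because miR-29 was the microRNA added or blocked. The study's supplement names a miR-29b mimic for 786-O. The mature mimic sequence in the study's methods has this seed but matches no sequence below in full. The mature sequences below are from RefSeq (GRCh38.p14), 5′ to 3′, with nucleotides 2 to 8 in capitals. hsa-miR-29a-3p lies at chr7:130876748-130876769, hsa-miR-29c-3p at chr1:207801865-207801886, and hsa-miR-29b-3p is encoded at chr7:130877467-130877489 and at chr1:207802450-207802472, all on the minus strand.
hsa-miR-29a-3p: uAGCACCAucugaaaucgguua
hsa-miR-29b-3p: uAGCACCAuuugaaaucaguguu
hsa-miR-29c-3p: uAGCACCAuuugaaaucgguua

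The first 2000 nucleotides of the longest annotated 3′ UTR of each gene were searched for TGGTGCT, the complement of those 7 nucleotides. This UTR was the sequence after the stop codon in any annotated transcript of the gene. It could therefore run over several exons, as in SLC25A45. The study limited its own seed search to genes whose isoforms all share 1 single-exon 3′ UTR. A match was found in 11 of 43 members (25.6%, exact 95% interval 13.5 to 41.2%), and in 1611 of 11260 genes that met the count minimum (14.3%). Matches of 6 bases or longer were in 37.2% of members and 32.5% of those genes. The longest kind, an 8mer in which an A follows the 7 bases, was in 1 member, MDM2 (2.33%, against 2.67% of genes). The median length of the longest UTR was 1559 nucleotides for members and 1948 for all these genes. A match describes letters and does not show that the site is used.

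The sites of 6 members that recur in the results below are shown with their flanks, as DNA on the strand of the mRNA, from GRCh38 with GENCODE 44 transcripts, with the match in capitals. With flanks included, the MDM2 window lies at chr12:68841219-68841246, that of BTG2 at chr1:203308728-203308754 and that of PTX3 at chr3:157443189-157443215. The CREB5 window lies at chr7:28819488-28819514, that of EREG at chr4:74386528-74386554 and that of KLF4 at chr9:107485255-107485281. KLF4 is on the minus strand and the others are on the plus strand.
MDM2: ggctcttatattTGGTGCTAtgtaaatg
BTG2: gttttttctcccTGGTGCTcagagcac
PTX3: gactttatgccaTGGTGCTttcagttt
CREB5: tgggaaacgcttTGGTGCTtttctcca
EREG: attgcagtcattTGGTGCTctgctaac
KLF4: tagcctaaatgaTGGTGCTtggtgagt

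The libraries held 39919554 to 70027392 reads assigned to genes. Between 37.25% and 48% of all reads were assigned to no single gene. Some of these were assigned to no counted feature, which need not mean that they lay outside genes. Their share was 14.32% in the 786-O control and 18.33% in the 786-O mimic library, against 8.656 to 10.73% in the other 10. This difference moves with the 786-O comparison, which has no replicate check, and its part in the 786-O values was not tested. The microRNA itself was not counted. Genes known as direct miR-29 targets, a list that held no member, were lower with the mimic in A-498 for 30 of 35 tested (3 higher), were at or below -0.7 in 786-O for 23 of 33, and were higher with the inhibitor in ACHN for 33 of 36 (0 lower). Over all genes, the test in A-498 called 25.5% higher and 27% lower (31.5% and 22.1% when scaled by library size alone), and in 786-O 12.7% of 13608 genes were at or below -0.7 and 7.33% at or above 0.7. Of 16 kidney lineage markers, 9 to 12 reached 1 CPM in each line. Their summed level was 1258 CPM in the 786-O control and 1280 with the mimic, 716 and 751 against 549 and 540 in A-498, and 260 to 280 against 240 to 250 in ACHN. Of 14 markers of other cell types, 14, 12 and 12 were under 1 CPM in 786-O, A-498 and ACHN, the highest (ITGAM, in ACHN) stood at 6.5 CPM, CD3E, HBB and HBA1 were at or near 0 in each line, and their sum ran from 1.28 to 1.67, 6.58 to 8.13 and 12.2 to 15.0 CPM. In bulk RNA a change in the share of cells that express a gene and a change in RNA per cell cannot be told apart.

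Among the 43, the median difference was 1.13 in A-498, over a range of 0.70 to 2.15, and -0.99 in 786-O, over a range of -0.70 to -2.28. The median over all 11277 genes was -0.02 in both lines. The opposite pattern, lower in A-498 and higher in 786-O at the same limits, was met by 18 genes. Another 92 genes were higher in both lines and 571 lower in both. Members lay on 17 chromosomes. Counts behind the 786-O values ran from 64 to 10723 in the control and 29 to 6551 in the mimic library, and an exact 95% interval for the 786-O ratio, which covers counting error only, reached above the limit of -0.7 for 18 of the 43. Members just inside the limits, by the smaller of their 2 shifts, were TAPBPL (0.703), IRAK2 (0.705) and LRRC61 (0.714). ETV4 (0.696), KCNJ8 (0.691) and CTHRC1 (0.690) were just outside.

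**Figure D1:**
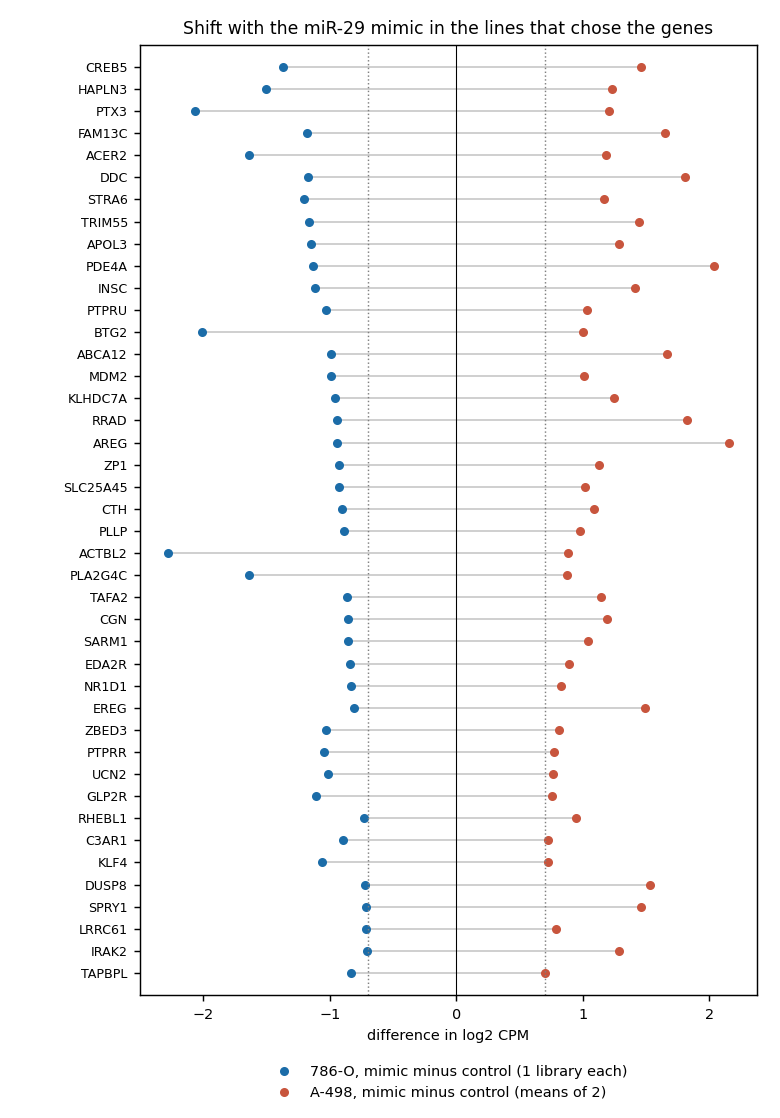
Difference in log2 CPM between the miR-29 mimic and the control mimic for 42 of the 43 genes, in 786-O (blue, 1 library per group) and A-498 (red, means of 2 libraries per group), ordered by the smaller shift. Dotted lines mark the limits of 0.7 and -0.7 that chose the genes, so that every red point lies to the right and every blue point to the left.

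The largest A-498 shift of the 43 (2.15) was in a growth factor gene. AREG encodes amphiregulin, a ligand of the epidermal growth factor receptor. It measured 3.68 and 3.43 CPM in the A-498 controls and 15.7 and 16.2 CPM with the mimic, and 2.45 CPM in the 786-O control against 1.25 CPM with the mimic. EREG, which encodes the related ligand epiregulin, lies next to it on chromosome 4, with 56387 bases between the genes. EREG shifted by 1.49 in A-498, where it was scarce (0.409 ± 0.0709 CPM, SD, n = 2, in the controls and 1.21 ± 0.0577 with the mimic), and by -0.81 in 786-O, where it stood at 235 CPM in the control and 134 CPM with the mimic. EREG was thus far lower in A-498, even with the mimic, than in either 786-O library. PTX3, a secreted pentraxin of innate immunity, measured 7.68 CPM in the 786-O control and 1.80 CPM with the mimic, against 0.990 and 1.60 CPM in the A-498 controls and 3.16 and 2.77 CPM with the mimic.

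HAPLN3, which links hyaluronan to proteoglycans in the matrix, had 3.94 and 3.0 CPM in the A-498 controls and 7.66 and 8.64 CPM with the mimic. In 786-O it measured 1.94 CPM in the control and 0.662 CPM with the mimic. Its level was low in both lines.

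Regulators of transcription and of p53 were also present. CREB5, a leucine zipper factor that binds cAMP response elements, had the largest smaller shift of the 43: 152 CPM in the 786-O control and 59.0 CPM with the mimic, against 8.32 and 8.03 CPM in the A-498 controls and 22.7 and 22.4 CPM with the mimic. BTG2, an antiproliferative gene and p53 target, measured 12 and 2.94 CPM in 786-O, and 57.0 and 55.2 against 111 and 114 CPM in A-498. MDM2, the ubiquitin ligase that degrades p53 and is itself induced by it, measured 90.8 and 45.8 CPM in 786-O, and 504 and 521 against 1034 and 1026 CPM in A-498. In A-498, whose values chose these genes, the replicates of each lay far closer to each other than to the other group. KLF4, a zinc finger factor of epithelial differentiation, shifted by 0.72 and -1.06 in A-498 and 786-O.

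Enzymes and modulators of intracellular signalling formed the next group. PDE4A degrades cAMP and measured 1.36 and 1.14 CPM in the A-498 controls against 5.17 and 5.29 CPM with the mimic, and 4.64 against 2.10 CPM in 786-O. RRAD, a Ras-like GTPase, measured 30.5 and 30.3 against 101 and 115 CPM in A-498, and 37.0 against 19.2 CPM in 786-O. The receptor tyrosine phosphatase PTPRU measured 18.6 and 18.4 against 37.6 and 38.4 CPM in A-498, and 32.3 against 15.8 CPM in 786-O. PDE4A and RRAD were thus among the largest shifts in A-498 (2.04 and 1.82). DUSP8, a phosphatase of MAP kinases, and SPRY1, a feedback inhibitor of receptor tyrosine kinase signalling, shifted by 1.53 and 1.46 in A-498 but only by -0.72 and -0.71 in 786-O. INSC, an adaptor of cell polarity, measured 0.778 and 0.604 against 1.88 and 1.89 CPM in A-498, and 1.92 against 0.867 CPM in 786-O. TRIM55, a ubiquitin ligase best known from muscle, measured 0.389 and 0.294 against 0.912 and 1.07 CPM in A-498, and 63.9 against 28.5 CPM in 786-O.

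Several members encode enzymes, transporters or receptors of metabolism. ACER2, a Golgi ceramidase, measured 6.10 and 7.12 against 15.3 and 14.7 CPM in A-498, and 5.33 against 1.69 CPM in 786-O. ABCA12, a lipid transporter, measured 56.4 in each control against 178 and 180 CPM in A-498, and 26.0 against 13.1 CPM in 786-O. APOL3, an apolipoprotein L, measured 4.15 and 4.02 against 9.66 and 10.4 CPM in A-498, and 6.33 against 2.83 CPM in 786-O. In each, as in all 43 members, both mimic libraries of A-498 lay above both controls, in values that chose the genes. STRA6, a receptor for retinol uptake, measured 3.02 and 2.15 against 5.47 and 6.14 CPM in A-498, and 14.0 against 6.07 CPM in 786-O. DDC, which makes dopamine and serotonin, measured 0.636 and 0.327 against 1.78 and 1.62 CPM in A-498, and 3.96 against 1.73 CPM in 786-O. SLC25A45, a mitochondrial carrier, measured 1.56 and 1.22 against 2.54 and 3.15 CPM in A-498, and 2.04 against 1.05 CPM in 786-O. DDC and SLC25A45 rested on low levels, at which few reads decide a value. So did other members in A-498, among them TRIM55 (22 and 18 reads in the controls) and C3AR1 (28 and 35). CTH, an enzyme of cysteine synthesis, shifted by 1.09 and -0.90 in A-498 and 786-O.

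Of the genes whose function is less clear, FAM13C measured 2.40 and 2.37 against 7.55 and 7.63 CPM in A-498, and 3.36 against 1.46 CPM in 786-O. KLHDC7A measured 13.0 and 11.5 against 28.3 and 29.9 CPM in A-498, and 17.2 against 8.83 CPM in 786-O. ZP1, an egg coat glycoprotein, measured 1.63 and 1.70 against 3.56 and 3.81 CPM in A-498, and 2.04 against 1.05 CPM in 786-O. The remaining members shifted by 0.70 to 1.29 in A-498 and by -0.70 to -2.28 in 786-O. They included the junction protein CGN (1.19 and -0.86), the membrane proteolipid PLLP (0.98 and -0.89), the receptors EDA2R, GLP2R and C3AR1, the neuropeptide gene UCN2, the clock repressor NR1D1, the axon degeneration enzyme SARM1 and the interleukin receptor kinase IRAK2. ACTBL2 had the largest fall in 786-O, but as an actin-like gene with close paralogues its reads may be split with them.

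**Figure D2:**
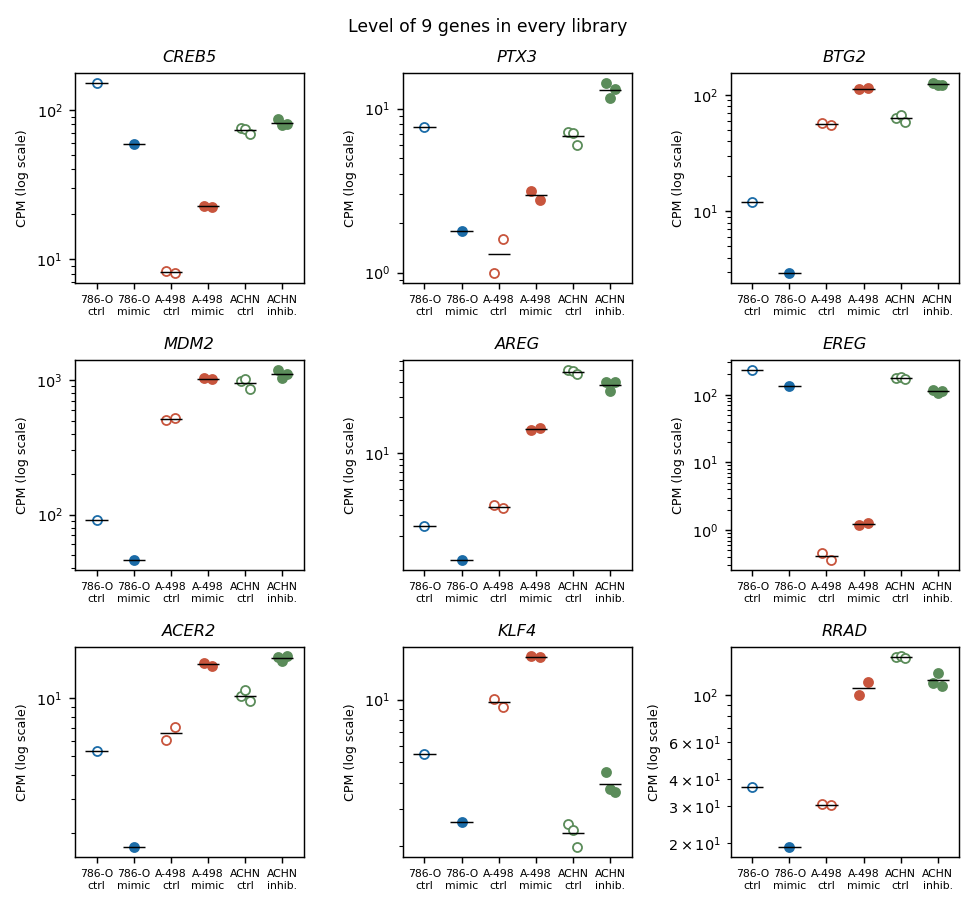
Level (CPM, log axis) of 9 genes in each of the 12 libraries. Open points are control libraries, filled points are mimic or inhibitor libraries, and bars are group means. In A-498 the filled points lie above the open ones and in 786-O below, in genes chosen for such a difference of means, while ACHN differs between genes: BTG2, PTX3 and ACER2 lie higher with the inhibitor and AREG, EREG and RRAD lower.

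ACHN was not used by the rule, so its libraries could be tested. With miR-29 blocked, more members were higher than lower. edgeR's quasi-likelihood test with Benjamini-Hochberg adjustment over all 17904 genes called 18 of 39 tested members higher (46.2%) and 5 lower (12.8%), and 16 were not called. Over all genes tested, 17.3% were higher and 14.4% lower, and over the 11103 tested genes that met the count minimum of the rule 21.9% were higher and 19.3% lower. The share of members called higher was thus above that of all genes, while the share called lower was not. Of the 18 genes with the opposite pattern (lower in A-498, higher in 786-O), 16 were tested in ACHN. Of these, 7 (43.8%) were higher, close to the members' share, and 4 (25.0%) lower, with a median log2 fold change of 0.20. The median log2 fold change of the 39 was 0.21, against 0.0038 for all genes. The inhibitor and control groups did not overlap, with the inhibitor higher, for 22 members (23.1% of all genes), and with the inhibitor lower for 6 (20%). DDC, STRA6, ZP1 and PTPRR, at no more than 0.273 CPM in any ACHN library, were not tested. Relative to the control mean, the median over members was 0.26, 0.21 and 0.23 in the inhibitor libraries and between -0.04 and 0.02 in the controls.

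HAPLN3 had the largest rise. It measured 2.36, 2.14 and 2.66 CPM in the controls and 4.64, 5.57 and 4.84 CPM with the inhibitor, a log2 fold change of 1.07 ± 0.12 (SE, edgeR adjusted p = 1.39e-06). BTG2 measured 63.5, 67.2 and 58.2 against 127, 122 and 122 CPM (0.97 ± 0.05, edgeR adjusted p = 1.95e-10). PTX3 measured 7.17, 7.12 and 6.01 against 14.4, 11.5 and 13.1 CPM (0.94 ± 0.09, edgeR adjusted p = 3.87e-07). For each of these genes every inhibitor library lay above every control. KLF4 measured 2.52, 2.38 and 1.97 against 4.51, 3.72 and 3.63 CPM (0.78 ± 0.13, edgeR adjusted p = 1.39e-04). ACER2 measured 10.3, 11.0 and 9.64 against 16.3, 15.7 and 16.5 CPM (0.64 ± 0.07, edgeR adjusted p = 1.52e-06). These groups did not overlap either. Another 12 called higher, with log2 fold changes of 0.16 to 0.58, were KLHDC7A, SLC25A45, ACTBL2, UCN2, PLA2G4C, IRAK2, TAPBPL, SARM1, MDM2, TRIM55, CREB5 and EDA2R. The annotated span of UCN2 overlaps that of PFKFB4 on the same strand, and that of TAPBPL overlaps CD27. Among called members, MDM2, SARM1 and LRRC61 also had same-strand overlaps with other annotated genes. Whether these overlaps affected the counts was not tested.

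The members that fell in ACHN included both receptor ligands. EREG measured 175, 182 and 171 CPM in the controls and 118, 105 and 115 CPM with the inhibitor, a log2 fold change of -0.65 ± 0.05 (SE, edgeR adjusted p = 1.79e-08). AREG measured 50.6, 48.9 and 46.4 against 39.5, 33.7 and 40.1 CPM (-0.37 ± 0.06, edgeR adjusted p = 1.01e-04). RRAD measured 151, 152 and 150 against 114, 127 and 111 CPM (-0.37 ± 0.05, edgeR adjusted p = 2.18e-05). In each, all inhibitor libraries lay below all controls. PDE4A measured 3.87, 2.98 and 3.68 against 2.55, 2.94 and 2.55 CPM (-0.40 ± 0.12, edgeR adjusted p = 0.0176). LRRC61 measured 110, 109 and 118 against 87.1, 98.8 and 91.9 CPM (-0.29 ± 0.05, edgeR adjusted p = 3.61e-04). Their groups did not overlap, although the lowest PDE4A control (2.98 CPM) and the highest inhibitor library (2.94 CPM) nearly met.

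Some calls near the threshold were lost when 1 library was left out, with the direction kept. CREB5 was no longer called without control replicate 3 or inhibitor replicate 1 (log2 fold changes of 0.11 and 0.10, edgeR adjusted p = 0.153 and 0.179). EDA2R was not called without control replicate 1, control replicate 3 or inhibitor replicate 1 (0.15, 0.13 and 0.12 against 0.16 with all libraries, edgeR adjusted p = 0.0511, 0.0790 and 0.0921). PDE4A was not called without control replicate 1 or inhibitor replicate 3 (-0.33 and -0.36 against -0.40, edgeR adjusted p = 0.0966 and 0.0660). TRIM55 was not called without control replicate 3 (0.14 against 0.19, edgeR adjusted p = 0.0590), nor PLA2G4C without control replicate 1 (0.35 against 0.48, edgeR adjusted p = 0.0882). UCN2 was not called without control replicate 3 (0.38 against 0.49, edgeR adjusted p = 0.105) or by DESeq2 (0.48, adjusted p = 0.0623). The other 17 kept their call in every alternative run. The 16 uncalled members ranged from -0.52 (FAM13C) to 0.46 (INSC). APOL3, INSC, CTH and GLP2R had inhibitor libraries above all controls without passing the test, and NR1D1 had them below.

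**Figure D3:**
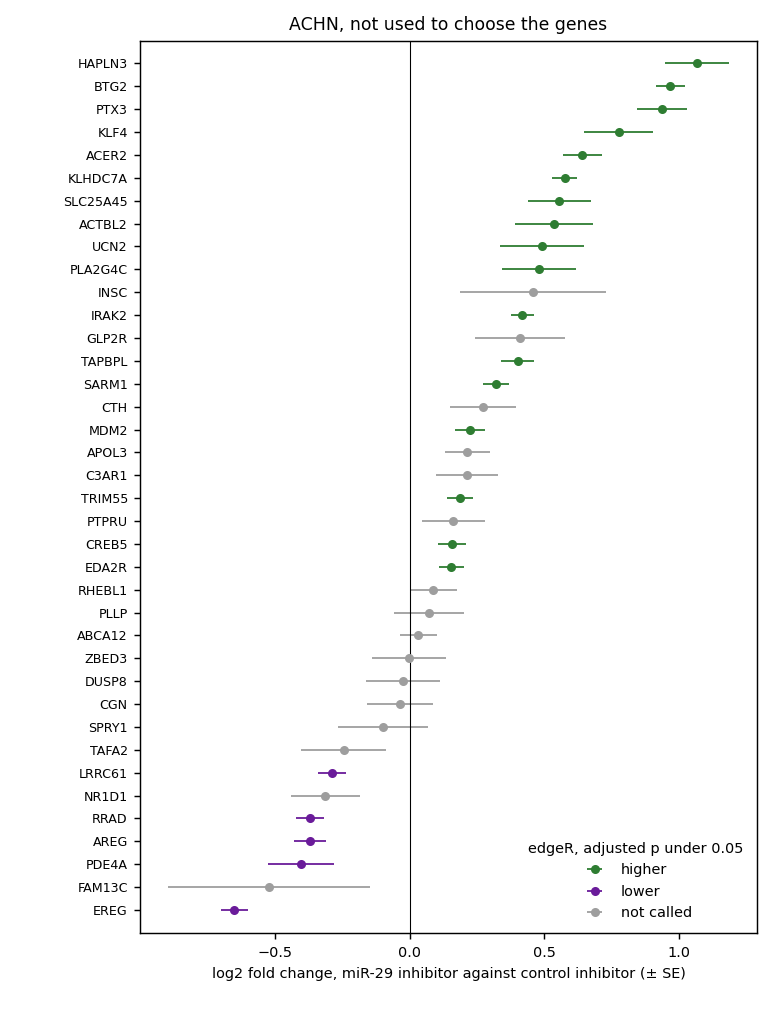
log2 fold change with the miR-29 inhibitor in ACHN for 38 of the 39 tested genes, with SE from edgeR (3 libraries per group). The 17 genes drawn that were called higher are green, the 5 called lower purple and the 16 not called grey, and HAPLN3, BTG2 and PTX3 lie furthest to the right and EREG furthest to the left.

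Members with the 7-base UTR match were called higher in ACHN in 8 of 11 cases, lower in 1 (EREG) and not called in 2 (PTPRU and SPRY1), with a median log2 fold change of 0.32. Among the 28 tested members without one, 10 were higher and 4 lower (35.7% and 14.3%), with a median of 0.17. Among all genes that met the count minimum, 37.2% of those with a match and 19.4% of those without were higher. In A-498 the mRNAs of all 11 were by selection higher with the mimic.

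Promoter windows of 250 bases before to 50 after the start were matched in RefSeq (GRCh38.p14) for 37 of 43 members, and motifs were searched on both strands. The AP-1 site TGACTCA was in 4 members (10.8%), C3AR1, EDA2R, INSC and UCN2, and in 2.79% of the 9282 matched genes that met the count minimum (4.92% of all 27305 promoters). The TATA box letters TATAAA, at any position in the window, were in 5 (13.5%, against 5.17% and 12%), AREG, C3AR1, CREB5, EREG and TAFA2. The NF-kB sites GGGACTTTC or GGGAATTTC were in 1, PLLP (2.7%, against 0.603% and 0.707%). The hypoxia response core ACGTG was in 12 (32.4%, against 27.4% and 21.6%) and the TEAD site CATTCC in 4 (10.8%, against 10.6% and 14%). The windows of the neighbouring ligand genes and of UCN2 are shown on the strand of the gene, with the match in capitals, at chr4:74445087-74445132 (AREG, plus), chr4:74365093-74365138 (EREG, plus) and chr3:48563857-48563903 (UCN2, minus, reverse complement of the AP-1 letters).
AREG: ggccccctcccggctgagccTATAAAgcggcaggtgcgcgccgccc
EREG: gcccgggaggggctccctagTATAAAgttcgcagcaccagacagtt
UCN2: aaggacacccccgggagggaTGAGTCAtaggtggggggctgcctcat

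In the AREG and EREG windows the match began 29 and 32 bases before the start. The TATAAA match began 31 bases before it in CREB5 and 185 in C3AR1. In TAFA2 it began 68 bases before, as the reverse complement. No test was made on any motif.

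Members differed widely in their level before any change in miR-29. Over the control libraries, 786-O had the highest level of 21 members, ACHN of 16 and A-498 of 6, and A-498 had the lowest of 19. The 786-O control exceeded the A-498 control mean for 31. The range over the 3 lines had a median of 2.57 log2 units. It was 9.60 for TRIM55 and 9.05 for EREG, both scarce in A-498 and abundant in 786-O and ACHN. HAPLN3, ACER2, SLC25A45, PLLP and SPRY1 varied by no more than 1 log2 unit, so that their opposite shifts began from like levels. The control libraries of 786-O and A-498 also entered the rule, so these levels are a description.

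**Figure D4:**
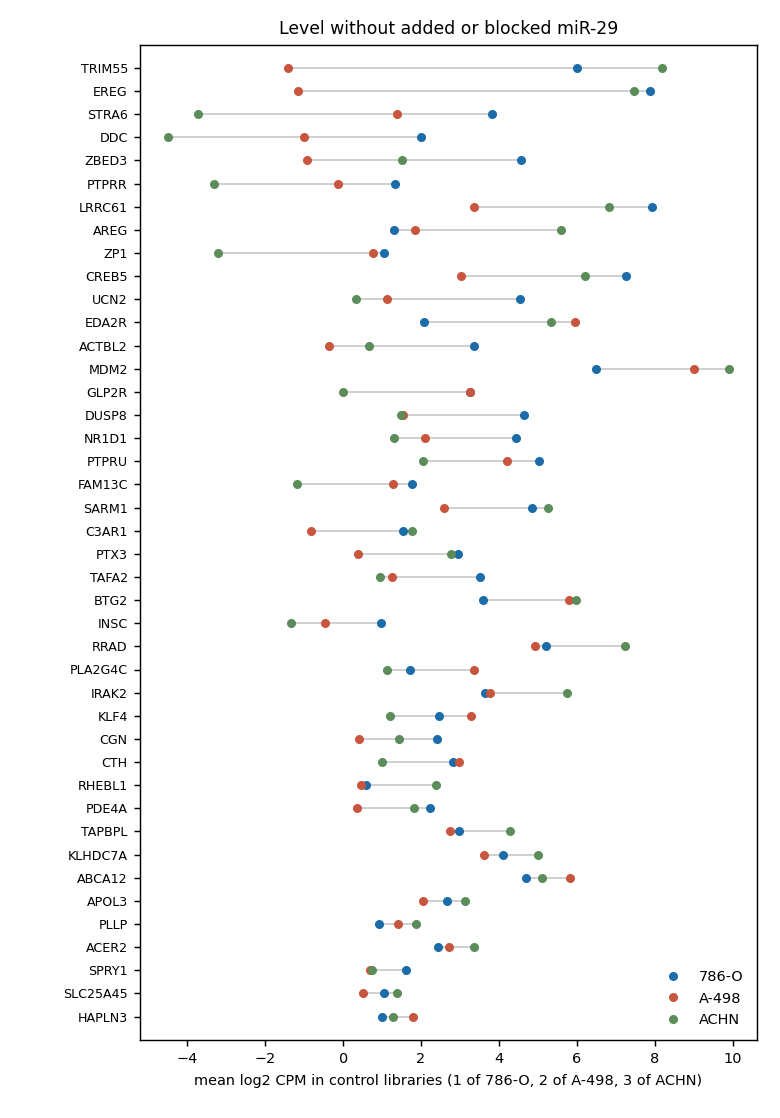
Mean log2 CPM of 42 of the 43 genes in the control libraries of 786-O (1 library), A-498 (2) and ACHN (3), ordered by their range. Positions can be compared within a gene but not between genes, since CPM is not adjusted for gene length, and TRIM55 and EREG span over 9 units while the lowest 5 rows span at most 1.

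Of 19 gene lists, 6 held members, 11 genes in all. The members are left out of the A-498 and 786-O counts below, since those values chose them. The shares over all genes, of any type, were 25.5% higher and 27% lower in A-498 and 17.3% higher and 14.4% lower in ACHN. In 786-O 7.33% were at or above 0.7 and 12.7% at or below -0.7. These sets are not matched to the lists in gene type or level. Among the 11103 tested genes that met the count minimum of the rule, 21.9% were higher and 19.3% lower in ACHN. No such share was made for A-498. The p53 target list held MDM2 and BTG2. Of its other 25 genes, 24 rose with the mimic in A-498 (96.0%) and 0 fell, and PLK2 (-0.03) was not called. Their median was 0.76. GADD45A, which acts in DNA damage responses, rose by 1.74 (edgeR adjusted p = 3.86e-12), and the cell cycle inhibitor CDKN1A by 0.57 (edgeR adjusted p = 2.19e-08). In 786-O the median of the other 24 with enough reads was -0.13, with 4 at or below -0.7 (16.7%, against 12.7% of all genes) and 1 (SESN2) at or above 0.7. TP53I3 was at -1.95, TNFRSF10B, a death receptor, at -1.22, the apoptosis activator BBC3 at -1.21 and CDKN1A at -0.60. In ACHN 17 of all 27 rose (15 of 25 without the members), CDKN1A by 0.82 (edgeR adjusted p = 3.09e-10) and TP53I3 by 0.71 (edgeR adjusted p = 9.13e-09), and PMAIP1 (-0.17) and CCNG1 (-0.14) fell. The fallen genes numbered 0 without control replicate 1 or inhibitor replicate 2, and 1 without control replicate 2 or inhibitor replicate 3.

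**Figure D5:**
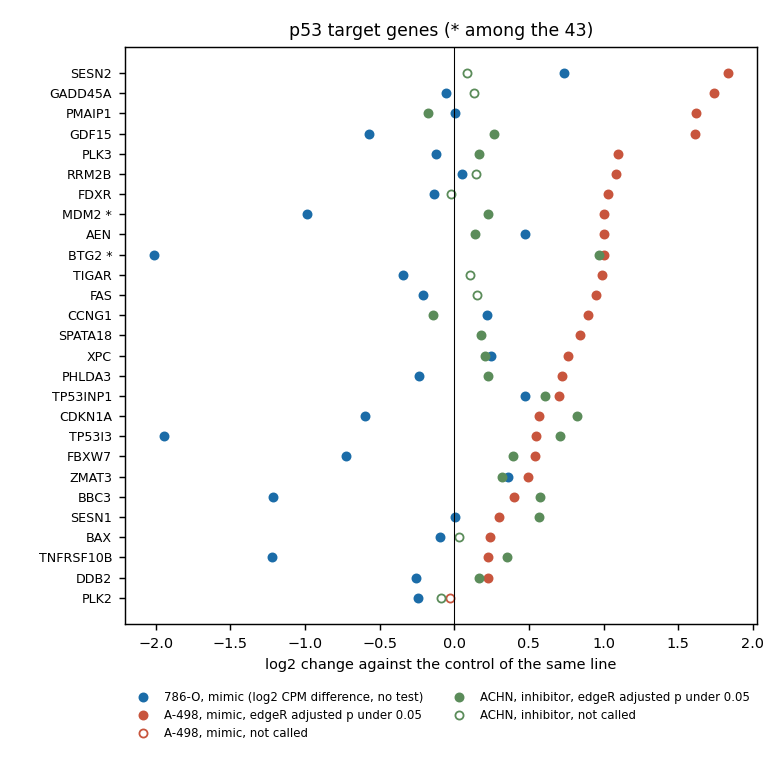
log2 change of 27 p53 target genes with the mimic in 786-O (blue, difference of 1 library per group, no test) and A-498 (red) and with the inhibitor in ACHN (green), where filled points passed edgeR's test at an adjusted p under 0.05. The red points lie to the right of 0 for each gene but PLK2, and MDM2 and BTG2, marked with a star, were chosen for their red and blue values.

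The list of MAPK immediate-early and feedback genes held KLF4, DUSP8 and SPRY1. Of the other 35 tested in A-498, 26 rose (74.3%) and 4 fell (11.4%). DUSP6, which switches off ERK, rose by 1.41 (edgeR adjusted p = 1.12e-06) and was at 0.89 in 786-O, so it did not share the members' pattern. In 786-O 6 of the other 31 were at or below -0.7 (19.4%) and 7 at or above 0.7 (22.6%). In ACHN 11 of all 36 rose and 5 fell (10 and 5 of 33 without the members, 30.3% and 15.2%). The 5 became 3 without control replicate 1 or 3, 1 without control replicate 2, 2 without inhibitor replicate 1 or 3, and 7 without inhibitor replicate 2.

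NF-kB targets outside the excluded symbols, with PTX3 as the member, rose in A-498 for 16 of the other 33 tested (48.5%) and fell for 8 (24.2%). In 786-O 12 of the other 26 were at or below -0.7 (46.2%) and 0 at or above 0.7. Among the 12 was the apoptosis inhibitor BIRC3 (-1.74), which was not called in A-498 (0.11). In ACHN 16 of all 33 rose (15 of 32 without PTX3, 46.9%) and 1, RIPK2, fell (-0.33, edgeR adjusted p = 1.82e-04), or 2 genes without inhibitor replicate 1, by DESeq2, and with library size or size factor scaling. Growth factor ligands, with AREG and EREG, rose in A-498 for 9 of the other 33 (27.3%, near the share of all genes) and fell for 16 (48.5%). In 786-O 10 of the other 30 were at or below -0.7 (33.3%) and 4 at or above 0.7 (13.3%). HBEGF, another ligand of the epidermal growth factor receptor, rose by 0.47 in A-498 (edgeR adjusted p = 0.00699), was at -2.34 in 786-O and rose by 0.30 in ACHN (edgeR adjusted p = 8.09e-05). It missed the limit of the rule in A-498. In ACHN 17 of all 32 ligands rose and 4 fell, AREG and EREG among the 4 (17 and 2 of 30 without them, 56.7% and 6.67%).

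Integrated stress response genes, with CTH, rose in A-498 for 15 of the other 28 (53.6%) and fell for 6 (21.4%). In 786-O 5 of the other 26 were at or below -0.7 (19.2%) and 2 at or above 0.7 (7.69%). In ACHN 9 of the other 27 rose (33.3%) and 6 fell (22.2%). Epithelial and junction genes, with CGN among its members, rose for 10 of the other 29 in A-498 (34.5%) and fell for 12 (41.4%). In 786-O 7 of the other 22 were at or below -0.7 (31.8%) and 1 at or above 0.7 (4.55%). In ACHN 13 of all 28 rose and 7 fell (12 and 7 of 26 without the members), but 8 rose without control replicate 1 or inhibitor replicate 3, and 7 rose and 4 fell without control replicate 3. Lists shared some genes, such as SESN2 and GADD45A. The other 13 lists, the known miR-29 targets among them, held no member.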

How the data were processed

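RNA-seq of 12 libraries from 786-O, A-498 and ACHN cells was analysed. The authors deposited raw counts of reads per gene, made with HISAT2 alignment to GRCh38 and HTSeq in its intersection-strict mode after rRNA depletion and stranded preparation. The strand setting is not given in the sources used here. Tables of the authors' own DESeq2 comparisons (log2 fold changes and p-values) were deposited and not used. Lines for reads assigned to no single gene (37.25 to 48% of reads) were removed, leaving 58051 genes. GENCODE 44 gave a symbol to 56948.

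CPM used TMM factors over all 12 libraries. Tests were edgeR 4.0.16 quasi-likelihood fits (R 4.3.3) within ACHN and within A-498 on genes kept by edgeR's expression filter, with Benjamini-Hochberg adjustment and a threshold of 0.05. DESeq2 1.42.0 was an alternative. Others were library size or size factor scaling, no filter, prior counts of 0.5 and 5, other cuts and count minimums, a replicate block and leaving out each library. 786-O had 1 library per group and no test. Samples were grouped by their labels. On simulated data with 200 changed genes, all above 1 CPM, the ACHN fit on 17904 genes recovered 79.1% of changes of 0.5 log2 units. It recovered 100% of changes of 1 and 2. In the data a larger share of genes was called and some members were under 1 CPM, so recovery among members may differ.

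The members and gene lists were chosen with earlier results of these data known. The text names the 20 members with the largest smaller shift, the 6 largest rises (of which 5 are given) and up to 6 largest falls called in ACHN, 3 genes on each side of the limits, members on a list, with an 8mer or with levels spanning at most 1 log2 unit, and others by role. Genes named from lists that are not members were chosen after their values were seen. 1 member is counted but not reported here by name or drawn. Intervals for the 786-O ratios cover counting error only, since reads carried no molecular identifiers. The interval for the share with a UTR match is binomial and treats the members as independent.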

Additional observations from a re-analysis of the deposited data

Results flagged for a closer look

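All 43 genes were higher in both A-498 mimic libraries than in either control and lower in the 786-O mimic library than in its control. The genes were chosen on their group means, so this follows largely from the rule. In 786-O, with 1 library per group, it restates the rule. Of all 13608 genes with enough reads in 786-O, 1767 showed the same pattern with no limit on its size. The difference between the lines was not tested, since these values chose the genes and 786-O had 1 library per group. Of 24 p53 target genes that were not among them and had enough reads in 786-O, 14 were higher in both A-498 mimic libraries and lower in the 786-O mimic library, among them CDKN1A, BBC3, TP53I3, GDF15 and TNFRSF10B. They made up 60.9% of the 23 that were higher in both A-498 mimic libraries, against 34.6% of 5111 such genes overall. The 5111 came from the 13608 genes and were not matched to the p53 list in gene type or level. The pattern sets no limit on size, and its 786-O direction rests on 1 library per group. In 786-O, 4 of the 24 p53 genes (16.7%) fell at least to the rule's limit, against 12.7% of the 13608. Another 1 rose by at least as much, and the median of the 24 was -0.13. The difference between the lines was not tested for these p53 genes either, so the shares are only a description.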

How the results depend on the processing

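The number of genes chosen depended on the limits: 113 at a cut of 0.5, 13 at a cut of 1 and 17 with at least 500 counts per line, against 43. It was 39 to 54 under the other scalings, prior counts and the lower count minimum, and 43 to 48 with 1 A-498 library left out, sharing 39 to 42 of the 43. In ACHN the count of members called higher was 14 to 19 and lower 4 or 5 in every alternative, 14 to 19 and 4 to 5 with 1 library left out. Their median log2 fold change was 0.14 to 0.22 with 1 library left out, lowest without control replicate 3 (0.14) and inhibitor replicate 1 (0.16). The cause was not tested. The UTR match fell from 25.6% to 2.33% when restricted to 8mers, which by construction is a stricter match. Of 253 recomputed fold changes of called members, 11 lost the call and 0 reversed.

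Same-numbered ACHN libraries did not deviate together (r = 0.04, -0.05 and -0.004). This gave no sign that the numbers pair them, but with so few libraries it cannot exclude a small shared effect. With a replicate block 18 members were higher and 5 lower, with a median of 0.22, and all 23 calls held. No paired fit was made in A-498, where the groups share only replicate 1. 786-O has 1 library per group, and counts of members there went down to 29, against 18 in A-498, so members with few reads have wide counting error in both lines.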
